A study of Homo sapiens with 12 samples.

Results

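Solute carriers are membrane proteins that move amino acids, sugars, ions, metals, vitamins and metabolites across the plasma membrane and the membranes of organelles. The genes described here are those whose symbol is SLC, a family number, the letter A and a member number, and whose mean level in TPM (transcript abundance scaled for gene length and to a fixed library sum) over all libraries was at least 3. Of 335 genes with such a symbol, 138 met that threshold and 197 did not, and 20 of those below it were listed at 0 TPM in every library. The table held 58884 genes in all. The members were thus chosen by their measured mean TPM, and their levels are given as a description. The members just inside it were SLC38A6 at 3.33, SLC23A2 at 3.27 and SLC19A2 at 3.19 TPM, and the genes just outside it were SLC35A3 at 2.83, SLC25A35 at 2.77 and SLC36A1 at 2.73 TPM. All 138 members passed the filter on low counts.

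RNA was sequenced from cultured HCC-LM3 and Huh-7 cells, human hepatocellular carcinoma lines, in 4 groups of 3 libraries. The wild-type cells of both lines were untreated, and the METTL5 knockout cells had been infected with a guide RNA against METTL5. METTL5 is the enzyme that methylates an adenosine in small-subunit ribosomal RNA. The labels name no control guide and do not say whether a knockout is 1 clone or a pool, so loss of METTL5 cannot be told apart from effects of infection or of clones. They do not say either that replicates came from separate cultures, so the spread that p-values rest on is that of these libraries and may be technical.

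Amino acid carriers of the plasma membrane work in pairs of uptake and exchange: sodium-driven carriers such as the SLC38 and SLC1 members load the cell, and exchangers such as SLC7A5 with its chaperone SLC3A2 trade those amino acids for essential ones. The SLC25 family sits mostly in the inner mitochondrial membrane, where it carries nucleotides, phosphate, citrate, carnitine esters and amino acids. In hepatocytes, further carriers take up citrate, fatty acids, bile acids, zinc and iron from the blood, and tumour cells are known for high glucose, lactate and glutamine transport.

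METTL5 was at 0 counts in all 6 knockout libraries, against 268, 327 and 325 counts in HCC-LM3 wild type and 237, 258 and 169 in Huh-7 wild type. Libraries held 17495275 to 26415496 counts. The 11 hepatocyte markers summed to between 12.4 and 14 TPM in wild-type HCC-LM3 libraries and between 12.7 and 17.1 in the METTL5 knockout. For Huh-7 the sums were 11402 to 12942 TPM before and 6634 to 6738 TPM after knockout. In HCC-LM3, HNF4A was the 1 hepatocyte marker of 11 at 1 TPM or more, while APOB, TTR and SERPINA1 were at 0 in wild type. The 4 epithelial markers summed to 2683 to 8096 TPM over all libraries. Fibroblast, leukocyte and endothelial markers summed to at most 20, 56 and 2.63 TPM, and the leukocyte sum was mostly CD68. Wild-type replicate 1 of HCC-LM3 stood apart from replicates 2 and 3, with a chi-square per degree of freedom over genes of 35 and 28.8, against 4.01 between those 2. In Huh-7 knockout the 100 most abundant genes took 48.2% to 48.7% of the counts, against 35.0% to 35.8% in Huh-7 wild type. The count-weighted mean gene length was 1698 to 1725 bases there, against 2731 to 2863 for wild-type Huh-7 and 3033 to 3260 for HCC-LM3.

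RefSeq (GRCh38.p14) gave a window from 250 bases before to 50 bases after the first listed start for 111 of the 138 members. Its median GC content was 67.3%, against 58.3% for 27305 promoters. The GC box GGGCGG, searched on both strands, was present in 85 of 111 (76.6%) and in 44.6% of all promoters. The E-box CACGTG was present in 14 of 111 (12.6%) and in 7.43% of all. TGATGNAA, the core of the C/EBP-ATF response element, was present on either strand in 6 of 111 (5.41%) and in 3.67% of all, and those 6 were SLC25A11, SLC27A5, SLC38A1, SLC39A11, SLC3A2 and SLC7A1. A match describes the letters in the window and is not evidence of a bound site. The 27305 promoters were taken whether or not their genes were expressed, while the members were chosen by level. Shares over expressed genes alone were not computed, so these differences are not shown to be particular to solute carriers.

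Members whose calls in both knockouts held under 4 scalings of the counts are named further on. Promoter windows of 3 of them are shown here because the results turn on these genes and because they differ in GC content. SLC25A39 and SLC7A7 were higher in both knockouts (SLC7A7 not on the TPM scale in Huh-7). SLC38A1 was lower in both (without a call on the TPM scale in HCC-LM3). Each sequence is the 200 bases from 250 to 51 bases before the start, read 5′ to 3′ on the minus strand, with GC boxes in capitals. The windows lie at chr17:44324874-44325073, chr14:22819842-22820041 and chr12:46266567-46266766 and overlap no exon of GENCODE 29. The first lies just upstream of the SLC25A39 gene, and the other two lie within introns of the longer GENCODE spans of SLC7A7 and SLC38A1.
SLC25A39: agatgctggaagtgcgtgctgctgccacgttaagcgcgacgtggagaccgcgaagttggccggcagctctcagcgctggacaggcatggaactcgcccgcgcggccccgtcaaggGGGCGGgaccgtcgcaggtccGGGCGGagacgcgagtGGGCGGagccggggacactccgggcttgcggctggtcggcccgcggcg
SLC7A7: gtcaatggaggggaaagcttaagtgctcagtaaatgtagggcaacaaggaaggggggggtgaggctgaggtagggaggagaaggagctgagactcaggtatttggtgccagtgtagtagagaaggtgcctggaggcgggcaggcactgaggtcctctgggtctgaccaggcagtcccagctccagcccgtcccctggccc
SLC38A1: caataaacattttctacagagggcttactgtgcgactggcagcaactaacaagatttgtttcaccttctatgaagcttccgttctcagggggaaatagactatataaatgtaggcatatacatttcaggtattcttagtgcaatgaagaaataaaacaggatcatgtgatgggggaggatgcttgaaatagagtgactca
The SLC25A39 window is 73% G and C and holds 3 GC boxes. The SLC7A7 window is 60% G and C and the SLC38A1 window 39%, and neither holds a GC box.

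Without SLC2A1, the members summed to 8954 ± 162 TPM in HCC-LM3 wild type and 8955 ± 71.8 in its knockout (SD, n = 3). The sum was 5370 ± 74.1 in Huh-7 wild type and 3252 ± 29.3 in its knockout. Tested genes with a mean of at least 3 TPM had a median log2 fold change of −1.03 there, on log2(TPM + 1). Lower TPM in the Huh-7 knockout was thus not particular to the members. SLC7A5 (1049 ± 17.1) and SLC3A2 (916 ± 42.7), which together form the large neutral amino acid exchanger, led in HCC-LM3 wild type. They were followed by SLC25A6 (861 ± 17.2) and SLC25A5 (767 ± 13.6), which exchange ADP for ATP across the inner mitochondrial membrane, and by the mitochondrial phosphate carrier SLC25A3 (674 ± 15.6). In Huh-7 wild type SLC25A3 (482 ± 49.8), SLC25A5 (396 ± 22) and SLC3A2 (367 ± 9.5) led, ahead of the anion exchanger SLC4A2 (329 ± 21.2). Of the 138 members, 64 had a group mean of at least 3 TPM in all 4 groups. A further 27 reached it in HCC-LM3 groups alone and 11 in Huh-7 groups alone.

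SLC2A1, which encodes the glucose transporter GLUT1, had the highest mean deposited TPM of all members, 1314, but the counts did not bear this out. It had 43, 65 and 90 counts in HCC-LM3 wild type and 39, 9 and 19 in its knockout. Huh-7 libraries held 190, 167 and 146 of its counts in wild type and 27, 22 and 80 in the knockout. With its length of 3670 bases these counts give a depth-scaled level of 1.31, which is 1005-fold under the deposited value. For 128 of the 138 members the 2 levels were within a factor of 2, and 131 members would also pass the threshold of 3 on counts and length. SLC2A1 is one of the 7 that would not, but by the rule it stays in the member counts below, among the carriers of sugars and among the members lower in HCC-LM3 than in Huh-7 wild type.

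**Figure D1:**
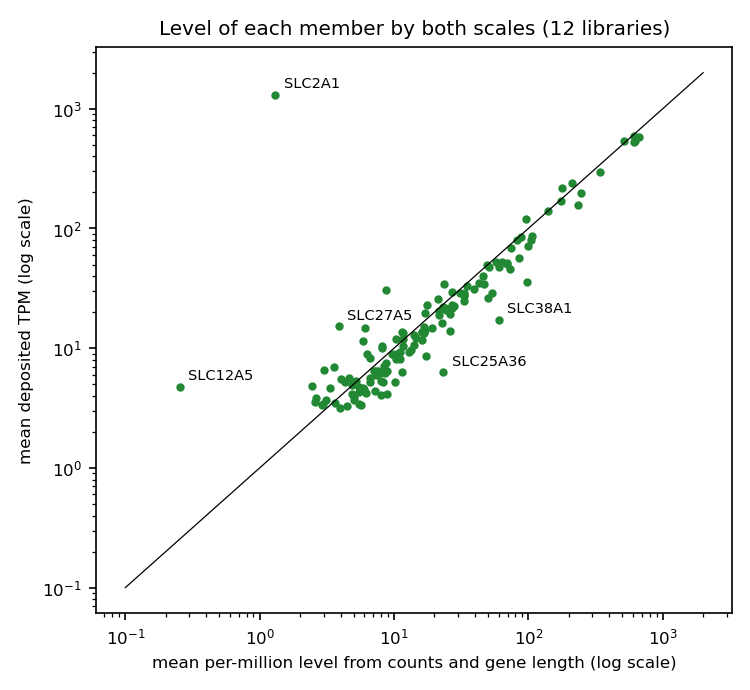
Mean deposited TPM of each of the 138 members (vertical axis, log scale) against the mean depth-scaled level computed from counts and gene length (horizontal axis, log scale), over 12 libraries. The line marks equal values. SLC2A1 lies far above it at 1314 against 1.31, and SLC12A5 also lies above it.

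In HCC-LM3 the knockout changed the transporter genes moderately and in both directions. Levels below are CPM (counts scaled to a fixed library size) after scaling by trimmed means of M values (TMM), and calls were made in edgeR's quasi-likelihood test at a p under 0.05 after Benjamini-Hochberg adjustment over 16537 genes. In HCC-LM3, 48 of 138 members were called, 29 higher and 19 lower in the knockout. The background was 26.8% of all tested genes called, 14.0% higher and 12.9% lower. Over the 9486 tested genes with a mean of at least 3 TPM, the level at which members were chosen, 21.2% were higher and 15.3% lower, near the members' 21% and 13.8%. The members' median log2 fold change was 0.08, against 0.00 over all tested genes. None of the called members reached an absolute log2 fold change of 1, a size that 1.71% of all tested genes passed. With library totals alone the split was 15 higher and 35 lower, against 7.25% and 20.7% of all tested genes. With offsets for GC content and length it was 15 and 20, against 9.57% and 8.28%. With DESeq2 size factors it was 29 and 17 (15.0% and 11.7%), and on log2(TPM + 1) 9 and 21. Leaving out wild-type replicate 1, the library that stands apart, gave 59 calls. Leaving out any of the other 5 gave as few as 32.

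In Huh-7 far more members were called, as was true of the whole transcriptome. The knockout changed 111 of 138 members, 55 higher and 56 lower, against 75.0% of all tested genes called, 31.7% higher and 43.2% lower. The median over the members was 0.02 and that over all tested genes −0.30, so an unchanged value on this scale lies above the median gene. Over the tested genes with a mean of at least 3 TPM the median was 0.04, with 43.1% called higher and 40.8% lower, near the members' 39.9% and 40.6%. Directions in this line turn on the scaling. The members split into 75 higher and 39 lower with DESeq2 size factors, against 39.4% and 35.4% of all tested genes. With offsets for GC content and length the split was 60 and 40 (29.7% and 27.8%). It was 18 and 102 with library totals alone (12.1% and 65.3%), and 2 and 119 on log2(TPM + 1). The median of all tested genes moved to 0.00, 0.00, −1.40 and −0.68 under those 4. In bulk RNA, fewer cells of a type and less RNA per cell cannot be told apart. The summed hepatocyte markers were lower in this knockout on the TPM scale, as given above. Genes in general were also lower on that scale. The median on log2(TPM + 1) was −0.68 over all tested genes and −1.03 over those with a mean of at least 3 TPM. The fall of the markers is thus not shown to be particular to them, and its part in the transporter values was not tested.

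Transcript length went with the Huh-7 values of the members. Neither the length classes nor the GC content of called genes was computed over all tested genes. These patterns are thus not shown to be particular to solute carriers. The count-weighted mean gene length of whole libraries was also lower in Huh-7 knockout, as given above. Among the 46 shortest members, of 1171 to 2356 bases, 36 were called higher and 5 lower, with a median log2 fold change of 0.96. Among the 46 of 2377 to 3593 bases, 15 were higher and 20 lower (median −0.06). Among the 46 longest, of 3604 to 10433 bases, 4 were higher and 31 lower (median −0.89). In HCC-LM3 the medians of the same classes were 0.09, 0.04 and −0.01. Called members differed in GC content in both lines. In HCC-LM3 the median was 60.7% for those called higher and 42.8% for those called lower, and the median lengths were 2872 and 3807 bases. In Huh-7 the median GC content was 57.2% and 47.1%, and the median lengths were 2226 and 3734 bases. Signed values given for a gene below are log2 fold changes of knockout over wild type in the line named, unless another quantity is stated.

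**Figure D2:**
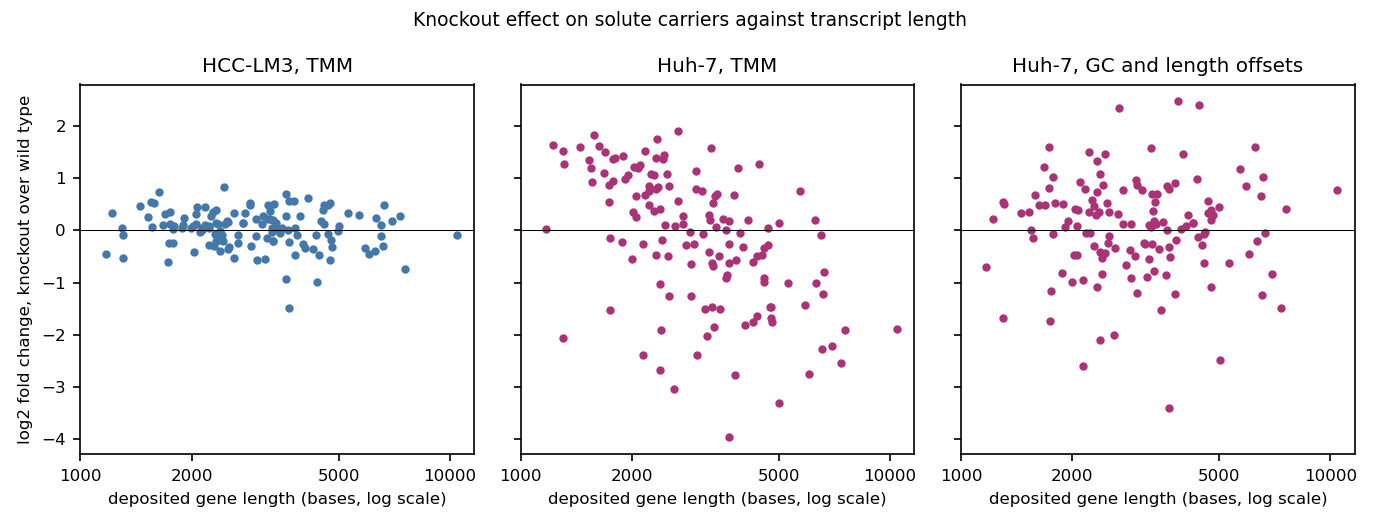
Log2 fold change of knockout over wild type (vertical axis) against the deposited gene length in bases (horizontal axis, log scale), 1 point per member, for HCC-LM3 and Huh-7 with TMM scaling and for Huh-7 with GC and length offsets. SLC2A3 is left out because its Huh-7 counts were at or near 0, and 4 members at or near 0 counts in HCC-LM3 are left out of the first panel. In Huh-7 the median falls from 0.96 in the shortest class to −0.89 in the longest.

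Each line was compared with its own wild type, so the 2 knockout comparisons share no libraries. Of the 138 members, 13 were higher in both (9.42%, against 6.72% of all tested genes) and 15 were lower in both (10.9%, against 9.94%). A further 10 were higher in HCC-LM3 and lower in Huh-7 (7.25%, against 4.31%), 3 were lower in HCC-LM3 and higher in Huh-7 (2.17%, against 1.43%), and 20 were called in neither. Under all 4 count scalings (TMM, DESeq2 size factors, library totals and GC and length offsets), SLC22A18, SLC25A39, SLC25A6 and SLC7A7 were called higher in both lines and SLC38A1 was called lower in both. On log2(TPM + 1) in Huh-7, SLC7A7 was called lower at −0.24 (adjusted p = 0.0359 in limma). SLC25A6 at −0.05 and SLC22A18 at 0.04 were not called there. On the same scale in HCC-LM3, SLC38A1 stood at −0.53 and missed the threshold (adjusted p = 0.0557 in limma).

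**Figure D3:**
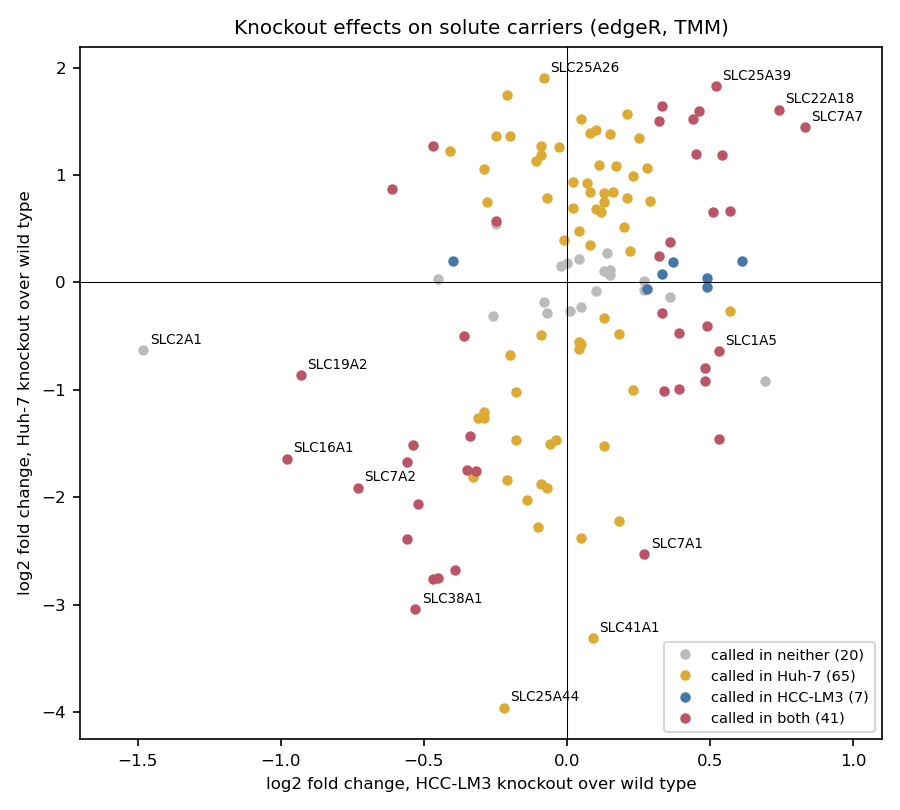
Log2 fold change of knockout over wild type in HCC-LM3 (horizontal axis) and in Huh-7 (vertical axis) for 133 members, from edgeR with TMM scaling. Colours give the comparison in which a member was called. SLC2A3, SLC13A5, SLC7A10, SLC6A11 and SLC38A3 are left out because 1 line had counts at or near 0. SLC7A7 and SLC22A18 lie at the upper right and SLC38A1 at the lower left, and SLC7A1 at the lower right.

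Among the 25 carriers of amino acids and peptides, 8 were higher and 6 lower in HCC-LM3 knockout, and 5 were higher and 15 lower in Huh-7 knockout. Over all tested genes the HCC-LM3 shares were 14.0% higher and 12.9% lower, and the Huh-7 shares 31.7% and 43.2%. The Huh-7 split was 9 and 9 with DESeq2 size factors, 8 and 9 with GC and length offsets and 0 and 25 on log2(TPM + 1). SLC7A7 is the light chain of the exporter for cationic amino acids whose loss causes lysinuric protein intolerance. It rose in both lines under all 4 count scalings, but was called lower in Huh-7 on log2(TPM + 1), at −0.24. It had 16, 13.8 and 13.4 CPM in HCC-LM3 wild type and 27.7, 24.3 and 24.7 in the knockout. In the Huh-7 line the gene had 74.4, 72.6 and 75.6 CPM in wild type and 208, 204 and 196 in the knockout. No knockout library overlapped a wild-type library in either line. The log2 fold changes were 0.83 (SE 0.1, adjusted p = 3.4e-07) and 1.45 (SE 0.09, adjusted p = 8.04e-16), and the HCC-LM3 value was the highest of any called member. The gene (ENSG00000155465) spans bases 22773222 to 22829820 of chromosome 14 on the minus strand of GRCh38.

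SLC38A1, a sodium-driven glutamine carrier, fell in both lines. It had 127, 180 and 182 CPM in HCC-LM3 wild type and 113, 119 and 107 in the knockout, where wild-type replicate 1 lay nearest to the knockout. In Huh-7 it had 43.3, 44.5 and 45.5 CPM in wild type and 5.72, 5.36 and 5.06 in the knockout, with no overlap. The log2 fold changes were −0.53 (SE 0.1, adjusted p = 0.000251) and −3.04 (SE 0.15, adjusted p = 1.83e-18), and with GC and length offsets −0.25 and −2.01. On log2(TPM + 1) SLC38A1 stood at −0.53 in HCC-LM3 and missed the threshold. Its relative SLC38A2, an amino acid carrier induced when amino acids are scarce, had −0.32 and −1.76, but with those offsets the values turned to 0.08 and 0.29. SLC36A4, a lysosomal and plasma membrane amino acid carrier, had −0.45 and −2.75, and neither call held with the offsets (−0.05 and −0.46).

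SLC7A1, a cationic amino acid carrier, had 28.2, 26 and 34.1 CPM in Huh-7 wild type and 5.22, 3.96 and 6.04 in the knockout (log2 fold change −2.53, SE 0.14, adjusted p = 5.73e-17). All 3 knockout values were under all wild-type values, and the fall held under all 4 count scalings and on log2(TPM + 1), between −3.63 and −1.48. In HCC-LM3 it had 125, 120 and 120 CPM in wild type and 155, 139 and 146 in the knockout, a log2 fold change of 0.27 (adjusted p = 0.0354). That HCC-LM3 call was lost with GC and length offsets (0.09) and without any of 5 of the 6 HCC-LM3 libraries, with adjusted p up to 0.751 over 17 alternatives. SLC7A2, which carries the same substrates, had 24.8, 37.5 and 33.7 CPM in HCC-LM3 wild type and 21.4, 17.4 and 19.2 in the knockout (log2 fold change −0.73, SE 0.13, adjusted p = 9.62e-05). Its Huh-7 value was −1.91, but 0.4 with GC and length offsets.

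SLC1A5, the main glutamine exchanger of many tumour cells, moved in opposite directions. It had 224, 174 and 173 CPM in HCC-LM3 wild type and 272, 257 and 295 in the knockout (log2 fold change 0.53, SE 0.1, adjusted p = 0.000266). The Huh-7 libraries gave 397, 362 and 419 CPM in wild type and 259, 257 and 239 in the knockout (−0.64, adjusted p = 1.25e-06), a fall that missed the threshold with DESeq2 size factors at −0.20. The groups did not overlap in either line, and 23.8% of its exon bases are shared with other genes. SLC1A4, its neutral amino acid relative, had 0.48 in HCC-LM3 (adjusted p = 0.000391) and −0.92 in Huh-7 (adjusted p = 1.39e-08). With GC and length offsets the Huh-7 value was −0.04.

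The most abundant pair of this group was not called in HCC-LM3. SLC7A5 had 2964, 2518 and 2521 CPM in HCC-LM3 wild type and 2890, 2810 and 3063 in the knockout, and these overlapped (log2 fold change 0.13, adjusted p = 0.418). SLC3A2 had 1186, 919 and 912 CPM against 1023, 1038 and 1130, which also overlapped (0.08, adjusted p = 0.615). In Huh-7 SLC3A2 had 598, 571 and 606 CPM in wild type and 1012, 1086 and 1073 in the knockout (0.84), but stood at −0.27 with library totals alone and −0.69 on log2(TPM + 1). SLC7A5 had −0.33 in Huh-7, but −0.07 without a call with GC and length offsets and 0.11 with DESeq2 size factors. SLC6A6, the taurine carrier, fell in Huh-7 from 124, 117 and 152 to 25, 25.6 and 30.3 CPM (−2.28, SE 0.11, adjusted p = 2.9e-18). Its values overlapped in HCC-LM3 (−0.1, adjusted p = 0.474), where the offsets gave a call at −0.24 (adjusted p = 0.00917). SLC7A6, an exchanger of cationic for neutral amino acids, fell in HCC-LM3 from 54.1, 66.7 and 62.5 to 51.8, 43.2 and 44.4 CPM (−0.4, adjusted p = 0.00276), though 55.6% of its exon bases are shared with other genes.

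A list of 9 amino acid carrier genes known as targets of ATF4, the transcription factor of the amino acid response, was written with earlier results of these data known and is no independent evidence of its direction. Of the 8 tested, 4 were higher and 1 lower in HCC-LM3 knockout (14.0% and 12.9% of all tested genes), namely SLC1A4, SLC1A5, SLC6A9 and SLC7A1 against SLC38A2. In Huh-7, 1 was higher (SLC3A2) and 7 lower, against 31.7% and 43.2%, but 2 were higher and 3 lower with GC and length offsets. The medians were 0.20 and −0.78, and −0.06 in Huh-7 with the offsets. The glycine carrier SLC6A9 had 0.39 in HCC-LM3 (adjusted p = 0.00193; 0.13 and no call with the offsets) and −0.47 in Huh-7 (adjusted p = 0.000863), the latter −0.03 with DESeq2 size factors. SLC7A11, the cystine exchanger, has a mean of 1.3 TPM and is no member. It had 0.01 in HCC-LM3 and −2.24 in Huh-7, and with the offsets 0.37 (adjusted p = 0.0108) and 0.43.

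Lactate and pyruvate are carried by SLC16 members, and those 2 best known in tumours moved apart. SLC16A1 (MCT1) fell in HCC-LM3 from 74.5, 96.9 and 90.2 to 44.3, 42.7 and 46 CPM (log2 fold change −0.98, SE 0.1, adjusted p = 3.13e-08). The knockout libraries lay well under all 3 wild-type libraries, and the value ran from −1.14 to −0.79 over 17 alternatives. This was the largest fall among the called members in that line. For Huh-7 the values were 14.7, 16.2 and 14.6 CPM against 4.63, 5.94 and 4.07 (−1.64, adjusted p = 1.19e-11), but −0.13 with GC and length offsets. SLC16A3 (MCT4), which exports lactate, had 364, 305 and 292 CPM in HCC-LM3 wild type and 427, 439 and 443 in the knockout (0.45, adjusted p = 0.00107), and 0.14 without a call with the offsets. In Huh-7 it had 121, 99.5 and 113 CPM against 257, 270 and 238 (1.2), but −0.37 on log2(TPM + 1). BSG, the chaperone that brings both to the membrane, is no member and had 0.43 and 1.09 in the 2 lines, the latter 0.22 with the offsets. Of all 6 carriers of this group, 1 was higher and 2 lower in HCC-LM3 (14.0% and 12.9% of all tested genes), and 2 were higher and 3 lower in Huh-7 (31.7% and 43.2%), where no member was higher on log2(TPM + 1). SLC16A6 was among those lower in both lines, at −0.47 and −2.76, but neither call held with the offsets (−0.17 and −1.22). It had only 15, 22 and 16 counts in Huh-7 wild type and 1 in each knockout library.

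Of the 13 carriers of sugars and sugar phosphates, 1 was higher and none lower in HCC-LM3 (14.0% and 12.9% of all tested genes). In Huh-7 8 were higher and 3 lower (31.7% and 43.2%), 7 and 2 with GC and length offsets, but 3 and 8 with library totals alone and 0 and 8 on log2(TPM + 1). SLC2A8, a glucose transporter of internal membranes, was the 1 called in HCC-LM3. It had 36.5, 32.9 and 30.1 CPM in wild type and 45.3, 44.7 and 45.2 in the knockout (0.44, adjusted p = 0.00109), and 0.16 with a missed threshold under the offsets. Among Huh-7 libraries it had 185, 160 and 195 CPM against 507, 534 and 514 (1.52), but −0.12 on log2(TPM + 1). SLC2A11 had 8.71, 10.1 and 9.62 CPM in Huh-7 wild type and 24.4, 32.4 and 27.8 in the knockout (1.57, adjusted p = 2.54e-11), and 0.06 without a call on log2(TPM + 1). SLC37A4, the glucose-6-phosphate carrier that liver cells need to release glucose, had 0.83 in Huh-7 but −0.28 with library totals alone and −0.79 on log2(TPM + 1). SLC2A1 was not called in either line. SLC2A3, the high-affinity glucose transporter GLUT3, had 3693 to 4970 counts in every HCC-LM3 library. In Huh-7 this gene had 6, 1 and 3 counts in wild type and 0 in the knockout, so no fold is given there.

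The mitochondrial SLC25 family was the largest, with 35 members. In HCC-LM3 7 were higher and 5 lower, against 14.0% and 12.9% of all tested genes. In Huh-7 18 were higher and 11 lower (31.7% and 43.2%), 15 and 8 with GC and length offsets, but 8 and 20 with library totals alone and 2 and 30 on log2(TPM + 1). SLC25A39, which imports glutathione into mitochondria, rose in both lines on every scale tried. It had 343, 275 and 271 CPM in HCC-LM3 wild type and 413, 417 and 447 in the knockout (0.52, SE 0.1, adjusted p = 0.000197). In Huh-7 it had 226, 214 and 233 CPM against 797, 815 and 774 (1.83, SE 0.1, adjusted p = 3.84e-17). Knockout and wild type did not overlap in either line, and on log2(TPM + 1) the Huh-7 value was 0.23. The gene (ENSG00000013306) spans bases 44319625 to 44324870 of chromosome 17 on the minus strand.

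SLC25A44, which carries branched-chain amino acids into mitochondria, showed the largest fall in Huh-7 among members with counts in both groups. It had 25.9, 28 and 34.2 CPM in wild type, from 707, 639 and 675 counts, and 1.38, 1.98 and 2.31 CPM in the knockout, from 14, 17 and 21 counts. The log2 fold change was −3.96 (SE 0.25, adjusted p = 5.79e-12), between −5.07 and −3.02 over 17 alternatives. In HCC-LM3 the libraries overlapped at 27.4, 27.4 and 39.8 against 32.9, 24.6 and 23.8 CPM (−0.22, adjusted p = 0.325). The difference between the lines was itself called, at 3.75 (SE 0.3, adjusted p = 7.73e-10). The gene (ENSG00000160785) spans bases 156193932 to 156212796 of chromosome 1 on the plus strand.

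Further mitochondrial carriers were called in one line or moved oppositely. SLC25A26, which brings the methyl donor S-adenosylmethionine into mitochondria, rose in Huh-7 from 7.03, 8.01 and 7.95 to 32, 25.2 and 28.1 CPM (1.9, SE 0.15, adjusted p = 1.97e-13), and was also called on log2(TPM + 1) at 0.31. In HCC-LM3 its values overlapped (−0.08, adjusted p = 0.722). SLC25A13, the aspartate-glutamate carrier citrin, fell in Huh-7 from 27.3, 30.1 and 29.5 to 9.27, 3.84 and 7.91 CPM (−2.03, SE 0.16, adjusted p = 2.61e-12). SLC25A4, the ADP/ATP carrier of muscle and heart, fell in HCC-LM3 from 33.9, 28 and 31.8 to 22.5, 20.8 and 24.3 CPM (−0.47, adjusted p = 0.00112). Its Huh-7 log2 fold change was 1.27, but −0.61 on log2(TPM + 1). SLC25A46, an outer-membrane protein of mitochondrial dynamics, had −0.56 in HCC-LM3 (adjusted p = 0.00848) and −1.67 in Huh-7, but −0.12 and 0.39 with the offsets, neither called. SLC25A6 and SLC25A1, the citrate carrier, had 0.46 and 0.54 in HCC-LM3 (adjusted p = 0.000915 and 0.000136). GENCODE lists 6 and 5 pseudogene copies of them, whose reads the counting may share.

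Of the 18 carriers of metals and heme, 1 was higher and 3 lower in HCC-LM3, against 14.0% and 12.9% of all tested genes. In Huh-7 7 were higher and 8 lower, against 31.7% and 43.2% (9 and 5 with GC and length offsets, 0 and 14 on log2(TPM + 1)). SLC39A14, which takes up zinc, manganese and non-transferrin iron in liver, fell in Huh-7 from 106, 96.4 and 110 to 23.5, 16.9 and 19.3 CPM. The log2 fold change was −2.38 (SE 0.11, adjusted p = 6.3e-19) and −2.6 with the offsets. In HCC-LM3 it overlapped, at 166, 172 and 162 against 177, 170 and 172 CPM (0.05, adjusted p = 0.725). SLC39A6, another zinc importer, was lower in both lines, at −0.56 (adjusted p = 0.00602) and −2.39 (adjusted p = 1.61e-09), and lost the HCC-LM3 call with the offsets at −0.29. The zinc importer SLC39A8 was likewise at −0.54 in HCC-LM3 (adjusted p = 0.00599) and −1.51 in Huh-7, and neither call held with the offsets (−0.29 and −0.26). SLC41A1, a magnesium carrier, had 57, 35 and 36 counts in Huh-7 wild type and 4, 0 and 1 in the knockout (−3.31, SE 0.44, adjusted p = 4.17e-08), against 1525 to 1931 counts in HCC-LM3. The zinc importer SLC39A3 had 0.33 in HCC-LM3 (0.10 and no call with the offsets) and 1.64 in Huh-7, the latter −0.01 on log2(TPM + 1). SLC39A1, the most abundant zinc importer, had 1.36 in Huh-7, but −0.30 on log2(TPM + 1), and shares 69.1% of its exon bases with other genes.

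The 14 carriers of inorganic ions and acid had 7 higher and none lower in HCC-LM3 knockout, with a median of 0.41. Of all tested genes 14.0% were higher and 12.9% lower, and of those with a mean of at least 3 TPM 21.2% and 15.3%. The count was 3 and 0 with library totals alone, 3 and 0 with GC and length offsets and 2 and 0 on log2(TPM + 1). SLC4A2, the chloride-bicarbonate exchanger AE2, rose from 335, 267 and 261 to 428, 427 and 467 CPM (0.61, SE 0.1, adjusted p = 5.11e-05). SLC12A4, the potassium-chloride cotransporter KCC1, rose from 53.6, 48.6 and 50.5 to 72.1, 70.7 and 72.3 CPM (0.49, SE 0.09, adjusted p = 0.000136). Wild type and knockout did not overlap for either gene, as was so for 20.5% of all tested genes in this direction, and both rises held under the 4 count scalings. Also called higher were SLC12A7, SLC26A11, SLC26A6 and SLC4A11, at 0.34, 0.49, 0.33 and 0.49, and none of these 4 kept its call with GC and length offsets (0.03, 0.22, 0.09 and 0.24).

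In Huh-7 the same group had 2 higher and 6 lower (31.7% and 43.2% of all tested genes), but 7 and 4 with DESeq2 size factors. SLC12A7 (KCC4) fell there from 91, 72.7 and 107 to 45, 43.6 and 45.7 CPM (−1.01, SE 0.11, adjusted p = 3.9e-10). Knockout and wild type did not overlap, as was so for 44.2% of all tested genes in this direction, and the fall held under the 4 count scalings and on log2(TPM + 1). SLC20A1, a phosphate importer, had 36.9, 36.5 and 32.5 CPM against 16.1, 8.62 and 13.2 (−1.47), but missed the threshold with GC and length offsets (−0.27). SLC12A8 had 0.79, but −0.31 with library totals alone and −0.55 on log2(TPM + 1). SLC4A2 was not called, at 0.2 with TMM, and stood at −0.91 with library totals alone.

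Of the 12 carriers of vitamins, nucleosides and choline, 1 was higher and 1 lower in HCC-LM3, against 14.0% and 12.9% of all tested genes. In Huh-7 6 were higher and 3 lower, against 31.7% and 43.2% (9 and 2 with GC and length offsets, 0 and 12 on log2(TPM + 1)). SLC19A2, the thiamine transporter, fell in HCC-LM3 from 14, 17.6 and 16.5 to 9.34, 7.73 and 8.19 CPM. The groups did not overlap, and the log2 fold change was −0.93 (SE 0.15, adjusted p = 2.63e-05), between −1.09 and −0.54 over 17 alternatives. Its Huh-7 log2 fold change was −0.86, but 0.85 with the offsets. SLC44A2, a choline-like transporter, rose in HCC-LM3 from 63.5, 59.2 and 52.9 to 89.3, 80.9 and 89.8 CPM (0.57, SE 0.1, adjusted p = 0.000146). Its log2 fold change was 0.67 in Huh-7, but −0.44 with library totals alone. The nucleoside carrier SLC29A3 had 70.8, 61.6 and 74.6 CPM in Huh-7 wild type and 148, 149 and 137 in the knockout (1.07), but −0.04 with library totals alone and −0.54 on log2(TPM + 1). Its relative SLC29A2 had 0.11 without a call, and −0.44 with the offsets. SLC23A2, a vitamin C transporter, fell in Huh-7 from 23.6, 19.8 and 26.1 to 5.22, 3.84 and 5.71 CPM (−2.22, SE 0.15, adjusted p = 9.82e-15), and stood at 0.18 without a call in HCC-LM3.

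Of the 9 carriers of fatty acids, bile acids and organic ions, 3 were higher and 1 lower in HCC-LM3, against 14.0% and 12.9% of all tested genes. In Huh-7 5 were higher and 4 lower, against 31.7% and 43.2% (3 and 3 with GC and length offsets, 0 and 6 on log2(TPM + 1)). SLC22A18, an organic ion carrier in the imprinted region of chromosome 11, rose in both lines. It had 24.2, 21 and 18.8 CPM in HCC-LM3 wild type and 34.3, 36.3 and 36.2 in the knockout (0.74, SE 0.1, adjusted p = 1.53e-06). For Huh-7 the values were 73.5, 68.3 and 67.4 CPM against 213, 213 and 211 (1.61, SE 0.09, adjusted p = 1.17e-16), and 0.04 without a call on log2(TPM + 1). SLC27A2, a very long-chain fatty acid carrier and ligase, had 41, 39 and 34 counts in Huh-7 wild type and 1, 2 and 4 in the knockout (−2.68, SE 0.42, adjusted p = 8.15e-07). Its HCC-LM3 value of −0.39 (adjusted p = 0.044) lost its call without any of 4 of the 6 HCC-LM3 libraries, with GC and length offsets (−0.25, adjusted p = 0.162) and with DESeq2 size factors (−0.36, adjusted p = 0.0576). SLC22A5, the carnitine transporter, fell in Huh-7 from 5.23, 6.87 and 6.18 to 2.66, 0.932 and 2.64 CPM (−1.52, SE 0.23, adjusted p = 4.46e-07).

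The remaining groups were small, and their counts read against those same shares of all tested genes. Of the 3 nucleotide sugar and acetyl-CoA carriers, SLC33A1 fell in Huh-7 from 5.49, 6.96 and 6.28 to 1.68, 1.51 and 1.76 CPM (−1.91, adjusted p = 6.75e-10). SLC35A4 had −0.25 in HCC-LM3 (adjusted p = 0.0436), a call lost without any 1 of 5 libraries, and 0.57 in Huh-7, but −0.54 with library totals alone. SLC35A2, the UDP-galactose carrier, had 249 to 263 CPM in Huh-7 knockout against 122 to 140 in wild type (0.93), but −0.14 with the offsets, and 0.07 without a call in HCC-LM3. The lysosomal sialic acid exporter SLC17A5 had −0.62 in Huh-7, but 0.69 with the offsets. SLC17A9, the vesicular nucleotide carrier, was called in neither line, at 0.04 in HCC-LM3 and 0.22 in Huh-7, and these turned to −0.11 and −0.89 with library totals alone. The 1 member of another family, SLC49A4, was lower in Huh-7 at −0.68, but 0.17 with the offsets. Solute carriers named under other symbols, such as the uncoupling proteins and sideroflexins, were 8 higher and 5 lower of 36 tested in HCC-LM3, against 13 higher and 14 lower in Huh-7 (17 and 4 with the offsets). Of 11 tested helper and gradient genes, 2 were higher and 2 lower in HCC-LM3, against 2 higher and 8 lower in Huh-7 (4 and 6 with the offsets). Of 8 single known targets of NRF2, MTF1, SREBP and HIF, 2 were higher and 1 lower in HCC-LM3, against 3 higher and 4 lower in Huh-7 (4 and 0 with the offsets).

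**Figure D4:**
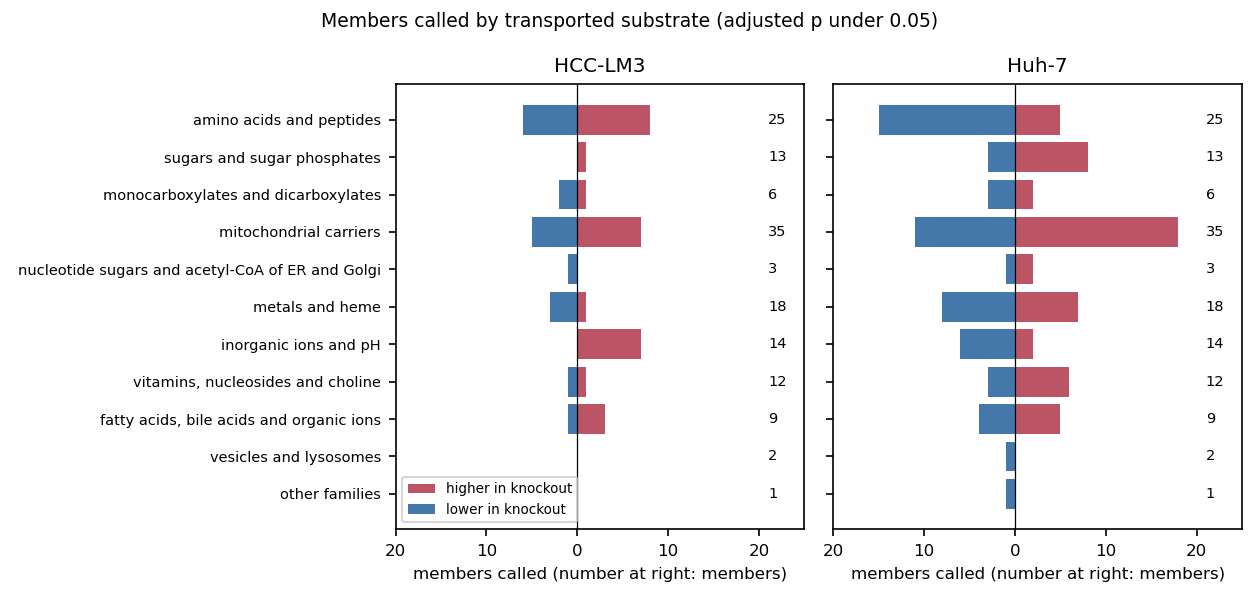
Number of members called higher (right, red) and lower (left, blue) in knockout against wild type at an adjusted p under 0.05, by transported substrate, in HCC-LM3 and Huh-7 with TMM scaling. The number at the right of each row is how many members the group holds. The inorganic ion group has 7 higher and none lower in HCC-LM3, and the amino acid group has 5 higher and 15 lower in Huh-7.

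**Figure D5:**
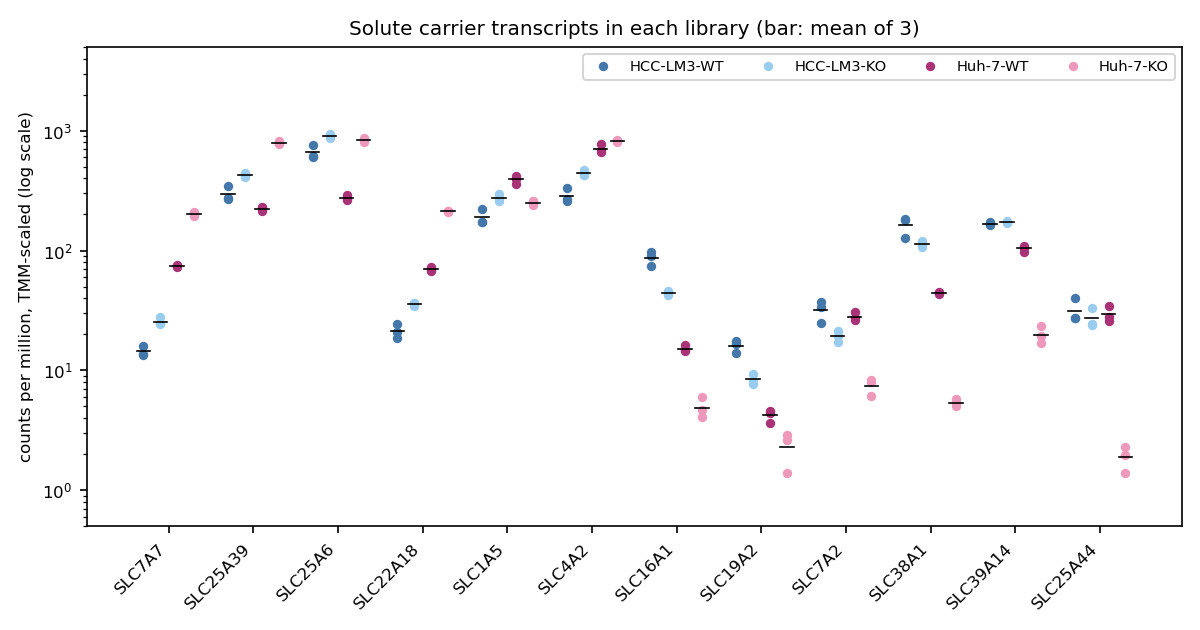
CPM after TMM scaling (log scale) of 12 members in each of the 12 libraries, with a bar at the mean of 3. On this scale SLC7A7, SLC25A39, SLC25A6 and SLC22A18 are higher in both knockouts, although SLC7A7 and SLC25A6 turn to −0.24 and −0.05 in Huh-7 on log2(TPM + 1). SLC16A1, SLC19A2, SLC7A2 and SLC38A1 are lower in both, although SLC19A2 and SLC7A2 turn to 0.85 and 0.4 in Huh-7 with GC and length offsets, and SLC39A14 and SLC25A44 are lower in Huh-7 knockout, where SLC25A44 lies between 1.38 and 2.31.

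The wild-type lines differed in 123 of 138 members, 65 higher and 58 lower in HCC-LM3, against 82.8% of all tested genes called, 41.8% and 41.0%. Over tested genes with a mean of at least 3 TPM the shares were 46.9% and 40.4%. Some carriers had few or no counts in 1 line. SLC6A11, SLC13A5, SLC7A10, SLC39A5 and SLC38A3 met the mean TPM threshold only through Huh-7, and SLC5A5 only through HCC-LM3, so their differences between the lines follow from the choice of members and are given as a description. SLC6A11, a GABA transporter, had 0 counts in HCC-LM3 wild type and 1498 to 1841 in Huh-7 wild type, at least 807-fold higher against a floor of 3 counts per library. SLC13A5, the citrate importer of hepatocytes, had 0 against 1142 to 1525 counts, at least 631-fold higher in Huh-7. SLC7A10, a neutral amino acid exchanger, had 0 against 667 to 892 counts, at least 364-fold higher. Floors cover counting error only. The zinc carrier SLC39A5 had 3, 0 and 0 counts in HCC-LM3 wild type and 1948, 1503 and 1431 in Huh-7 wild type, and the glutamine carrier SLC38A3 had 0, 2 and 1 against 1688, 1263 and 1320. In the other direction, SLC5A5, the iodide transporter, had 639, 639 and 539 counts in HCC-LM3, whereas Huh-7 libraries held 5, 0 and 0. SLC43A3, a purine nucleobase carrier, had 478, 416 and 431 CPM in HCC-LM3, against 12.5, 12.3 and 13.9 for Huh-7 (log2 difference 5.1, SE 0.11, adjusted p = 5.02e-29), with 29.9% of its exon bases shared. SLC7A5 was higher in HCC-LM3 by 3.25 (SE 0.12, adjusted p = 1.51e-22). Of the 18 metal carriers 14 were higher in HCC-LM3 and 4 lower, and of the 12 vitamin, nucleoside and choline carriers 2 were higher and 7 lower. These directions of the counts held under the other scalings, with 12 and 4 and with 3 and 9 under the GC and length offsets. Over all members, 27 reached 3 TPM in HCC-LM3 groups alone and 11 in Huh-7 groups alone. The direction of such members between the lines largely follows from the choice of members, so all counts in this comparison are a description only.

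The knockout effect itself differed between the lines for 100 of 138 members, against 61.6% of all tested genes. It was higher in HCC-LM3 for 54 and lower for 46, against 37.7% and 23.9%, and against 39% and 35.6% of those with a mean of at least 3 TPM. The split was 37 and 62 with DESeq2 size factors, 35 and 53 with GC and length offsets, and 89 and 12 with library totals alone. Under all 4 count scalings 24 members (17.4%, against 17.7% of all tested genes) were higher in HCC-LM3 and 11 (7.97%, against 8.29%) lower. Those 24 included SLC25A44, SLC41A1, SLC7A1, SLC38A1 (2.51) and SLC39A14 (2.43). The 11 included SLC25A26, SLC25A4 and SLC25A20, the carnitine-acylcarnitine carrier of fatty acid oxidation.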

How the data were processed

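Total RNA (1 ug per library, per the labels' protocols) from 12 libraries was sequenced on an Illumina instrument. The authors deposited estimated counts per gene, TPM and gene length for each library, per the file headers. The submitters' processing notes list Bowtie 0.12.2 with builds mm8 and mm9 of the mouse genome, which do not go with the human Ensembl identifiers of the table. The aligner, counter and build used for these human data are otherwise not given in the sources used here. Over all genes, 7.49% to 13.3% of the estimated counts in a library were not whole, and all were rounded.

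The 16537 genes kept by filterByExpr were fitted in R 4.3.3 with edgeR 4.0.16 (TMM, robust quasi-likelihood, 1 model with 4 groups, 8 residual degrees of freedom), and p-values were Benjamini-Hochberg adjusted over all of them. Standard errors were taken from the F statistics. With 3 against 3 libraries an exact permutation test cannot go below 0.1, so none was used. The scripts were tested on simulated data. At an adjusted p under 0.05, false calls there made up 8.76% of calls for HCC-LM3 and 4.62% for Huh-7. They made up 11.9% for the difference between lines and 5.35% for the wild-type lines. Simulated 1.5-fold changes were recovered at 70.1%, 58.2%, 29.9% and 71.6%, in the same order. Alternatives used DESeq2 1.42.0, limma 3.58.1 (pseudocount 1 for TPM), other scalings, filters, thresholds, a replicate block and omission of each library. Membership recomputed from counts and gene length was added after seeing the data.

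GENCODE 29 (GRCh38) held 99.54% of the identifiers. Promoters came from RefSeq.

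The members, roles and lists were chosen with earlier results of these data known. By rule the text names, per knockout comparison, the 8 highest and 8 lowest called members without overlap between groups. It adds the 4 highest and 4 lowest differences between lines, the 5 highest and 5 lowest between wild types, each role's most abundant and extreme members, and the ATF4 list. Other members named to complete a role were chosen after their values were seen. Some members are counted but not reported by name here.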

Additional observations from a re-analysis of the deposited data

Results flagged for a closer look

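The knockout effect differed between the lines, by a test of the difference itself in edgeR's quasi-likelihood fit, for 100 of the 138 members, against 61.6% of all tested genes. Members with high and low differences are given here as log2 effect in HCC-LM3 minus that in Huh-7. At the low end were mitochondrial carriers, at −1.98 for SLC25A26, −1.74 for SLC25A4 and −1.60 for SLC25A20. On log2(TPM + 1) SLC25A4 stood at 0.05 and SLC25A20 at −0.09, neither called. At the high end were SLC25A44 at 3.75, SLC41A1 at 3.40 and SLC7A1 at 2.79, which were called under all 22 alternatives run for them. SLC2A3 had 4.96, but its Huh-7 counts were 6, 1 and 3 in wild type and 0 in knockout, so that value depends on the prior count and gives no bound.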

How the results depend on the processing

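The direction of change in Huh-7 depended on scaling, and the calls in HCC-LM3 depended on the threshold and on GC and length offsets. The HCC-LM3 count of 48 became 30 on log2(TPM + 1), 30 at an adjusted p under 0.01 and 0 when a log2 fold change of 1 or more in size was also asked for in edgeR, and 32 to 59 when 1 library was left out. The Huh-7 count of 111 became 65 with that fold change, 64 for members at 10 TPM or more and 61 for those at 3 TPM in every group compared (107 to 113 with 1 library left out). The difference between lines gave 57, 62 and 47 under those 3 settings (94 to 99), and the wild-type lines gave 74 at 10 TPM or more (123 to 128). The settings at 10 TPM or more and at 3 TPM in every group compared keep fewer members. Their lower counts thus do not by themselves show lost calls, and the shares of members called under them are not given here. The replicate block gave 45, 110 and 96 calls for HCC-LM3, Huh-7 and the difference, and 32, 100 and 87 with GC and length offsets. Deviations of same-numbered libraries correlated at −0.20, 0.23 and −0.45 for HCC-LM3, against −0.05, −0.05 and 0.09 for Huh-7. Differently numbered libraries ran from −0.44 to 0.55 in HCC-LM3 and from −0.10 to 0.13 in Huh-7. With 3 libraries per group these values cannot show whether libraries were paired. Of 560 alternative values for 33 called Huh-7 genes, 507 kept direction and call, 29 lost the call and 24 turned; for 26 in HCC-LM3 these were 377, 63 and 2 of 442. The turned values that follow cover the genes and comparisons named by rule, called or not, and so outnumber these. Other values given in the text are not in this list, though some also turned in Huh-7, as given above. Among them were SLC19A2, SLC7A2 and SLC25A46 with GC and length offsets and SLC25A4 on log2(TPM + 1). SLC37A4, SLC44A2 and SLC35A4 did so with library totals. In Huh-7 with library totals the turned values named by rule were SLC12A8 −0.31, SLC17A9 −0.89, SLC29A2 −1.0, SLC29A3 −0.04, SLC35A2 −0.18, SLC3A2 −0.27 and SLC4A2 −0.91. On log2(TPM + 1) they were SLC12A8 −0.55, SLC16A3 −0.37, SLC17A9 −1.55, SLC25A6 −0.05, SLC29A2 −1.48, SLC29A3 −0.54, SLC2A8 −0.12, SLC35A2 −0.61, SLC39A1 −0.30, SLC39A3 −0.01, SLC3A2 −0.69, SLC4A2 −1.48 and SLC7A7 −0.24. With GC and length offsets, and with the replicate block added, they were SLC17A5 0.69 and 0.68, SLC29A2 −0.44 in both, SLC35A2 −0.14 in both, SLC38A2 0.29 and 0.28, and SLC49A4 0.17 and 0.16. SLC29A2 was −0.01 with no filter, and SLC7A5 was 0.11 with DESeq2 size factors and in the DESeq2 Wald test. In HCC-LM3 the turned values with library totals were SLC17A9 −0.11, SLC29A2 −0.02, SLC35A2 −0.08, SLC3A2 −0.07 and SLC7A5 −0.02. With the offsets, with or without the replicate block, they were SLC17A9 −0.23, SLC29A2 −0.14, SLC35A2 −0.13, SLC38A2 0.08, SLC3A2 −0.08 and SLC7A5 −0.14. On log2(TPM + 1) they were SLC17A9 −0.03, SLC29A2 −0.06, SLC35A2 −0.09, SLC3A2 −0.07 and SLC7A5 −0.05, and SLC17A9 ranged from −0.03 to 0.10 when each library was left out. The difference between lines on log2(TPM + 1) was 0.05 for SLC25A4 and −0.01 for SLC2A3. The cause was not tested. Depth limits members with few Huh-7 counts, such as SLC16A6, SLC27A2 and SLC41A1.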

Other observations

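Beside SLC2A1, the deposited TPM and the level computed from counts and gene length were more than a factor of 2 apart for 9 members. SLC12A5, a neuronal potassium-chloride cotransporter, had a mean of 4.78 deposited TPM against 0.255 from 0 to 39 counts per library. SLC27A5, the bile acid-CoA ligase, had 15.3 against 3.87, and the zinc importer SLC39A4 30.9 against 8.76. In the other direction, SLC25A36, a pyrimidine nucleotide carrier, had 6.28 against 23.3, SLC38A1 17.3 against 60.1 and SLC39A14 35.6 against 97.5. The remaining 3 were SLC27A3, SLC2A11 and SLC45A4.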
